A study of Brassica napus with 36 samples.

Results

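The light-harvesting chlorophyll a/b-binding proteins of rapeseed leaves were described as a gene family: all loci whose Swiss-Prot match in the deposited annotation carried the words "Chlorophyll a-b binding protein". This rule took 77 of 106340 annotated genes, 37 on the A and 40 on the C subgenome of Brassica napus. By the KEGG orthology entry of the locus or, where it had none, by a Swiss-Prot match shared with a locus that had one, 75 of the 77 fell into 12 antenna proteins. They were 17 LHCB1, 8 LHCB2, 5 LHCB3, 12 LHCB4, 4 LHCB5, 9 LHCB6, 1 LHCB7, 4 LHCA1, 5 LHCA2 or LHCA6, 6 LHCA3, 2 LHCA4 and 2 LHCA5 loci, and 2 loci stayed unresolved. No count was listed in any library for 4 loci, all of them LHCB4 loci with coding lengths of 276 to 414 bp, and 66 loci had a mean of at least 1 FPKM (fragments per 1000 bases of coding length and 1000000 counts). Of the 77, 69 passed the filter on low counts in at least 1 comparison and 8 in none.

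The antenna is the set of pigment-binding thylakoid proteins that collect light and pass its energy to the reaction centres. Proteins named LHCB belong mainly to photosystem II: LHCB1, LHCB2 and LHCB3 form the trimers of the major antenna, while LHCB4, LHCB5 and LHCB6 (CP29, CP26 and CP24) sit singly between the trimers and the core. Proteins named LHCA serve photosystem I. In Arabidopsis, phosphorylation of LHCB1 and LHCB2 accompanies the movement of trimers between the photosystems, and transcription of the family follows light and the circadian clock.

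HX17 and HX58 are early-maturing semi-winter varieties, and HX17 is the more cold-tolerant. Leaves were sequenced in 36 libraries, 3 for each of 12 groups, and the third leaf from the top was taken at 8 am. In groups CA and FA, plants grew for 4 weeks at 20°/16° and 14 days at 4° and then spent 12 h at 4° (CA) or -4° (FA). In groups CB and FB, plants grew for 6 weeks at 20°/16° and went directly into 12 h at 4° (CB) or -4° (FB). MA, labelled control A, was set against CA and FA, and MB, labelled control B, against CB and FB. How MA and MB differed in age or day of sampling was not stated in the sources used here, so what a difference between them stands for cannot be told. A group is written with its variety, as in HX17_CA, and a library with its replicate number, as in HX17_CA_1. The sources used here call the replicates both technical and biological, so the p-values measure the spread between these libraries, whichever kind it is.

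Libraries held 32214015 to 59290772 counts. Leaf markers fixed for the check of the tissue summed to 33927 to 134918 FPKM per library, root markers to 1.93 to 21.1 FPKM and flower markers to 0 to 5.53 FPKM. Of the leaf markers themselves, 15 of 49 tested loci fell and 4 rose in HX17_CB, 17 of 48 and 6 in HX17_FB, 17 of 48 and 2 in HX58_CB, 22 of 49 and 2 in HX58_FB, and 11 of 48 and 1 in HX58_FA, where 8.19%, 13.3%, 11.8%, 13.6% and 7.26% of all tested genes were called lower. Leaf markers also fell, and none rose, in HX17_CA (3 of 49), HX17_FA (4 of 50) and HX58_CA (3 of 46), beside 0.449%, 2.63% and 2.77%. Their part in the antenna results was not tested. In bulk leaf, fewer cells of a type and less RNA per cell cannot be told apart. Many antenna loci are near-identical A and C copies or tandem copies, and reads may be split between them, so values of single copies are uncertain to that extent.

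Antenna transcripts made up 3.87% to 14.9% of all counts in a library. In HX17 the 77 loci took 11.1%, 11.2% and 12.9% of the counts in the 3 MA libraries, 9.62%, 9.35% and 11.3% in CA and 14.9%, 11.4% and 12.2% in FA. The MB libraries of HX17 held 8.18%, 8.78% and 8.80%, those of CB 4.47%, 4.40% and 5.87%, and those of FB 3.87%, 7.78% and 4.23%. Every HX17_CB and HX17_FB library lay below every HX17_MB library, and HX17_FB_2 stood above the other 2 libraries of its group. In HX58 the share was 11.4% to 12.9% in MA, 13.2% to 14.8% in CA and 13.4% to 14.0% in FA, so that every acclimated library lay above every MA library. It was 6.61% to 9.86% in HX58_MB, 3.88% to 4.36% in HX58_CB and 4.07% to 6.58% in HX58_FB, and again every cold library lay below every control library. The plot of antenna shares by library shows these values.

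**Figure D1:**
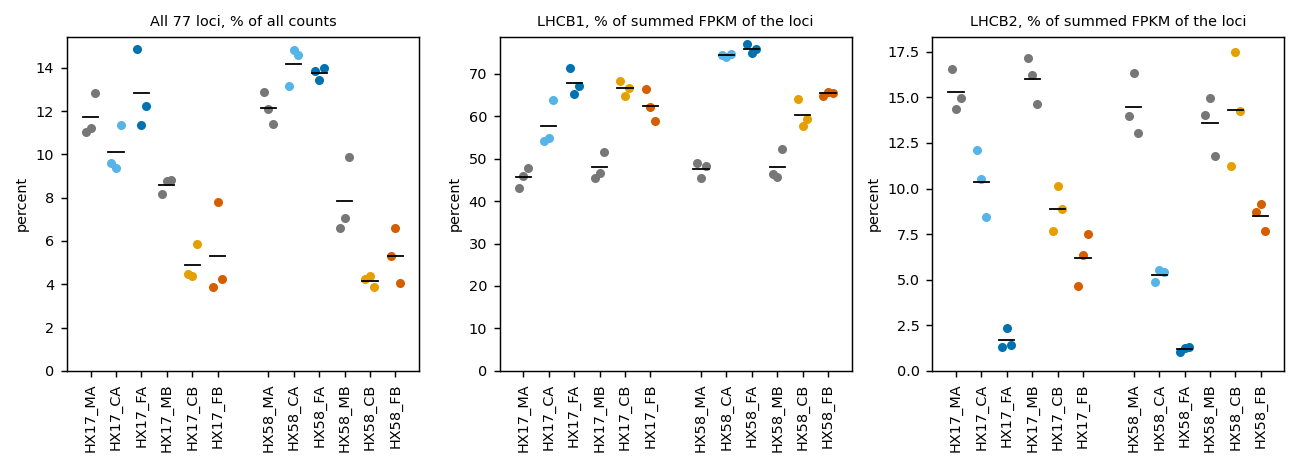
Percent of all counts taken by the 77 antenna loci (left) and percent of the loci's summed FPKM taken by LHCB1 (middle) and LHCB2 (right), by variety and group; each point is a library, ordered by replicate number, each black line the mean of 3, controls are grey, acclimated groups blue and non-acclimated cold groups orange. The antenna share lay at 3.87% to 7.78% in all CB and FB libraries, and LHCB1 took 42.99% to 52.2% of antenna FPKM in control libraries and 54.3% to 77.01% in cold-treated ones.

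The make-up of the antenna mRNA pool differed between cold and control leaves in every library. LHCB1, the most abundant antenna protein of land plants, took 42.99% to 52.2% of the summed antenna FPKM in the 12 control libraries and 54.3% to 77.01% in the 24 cold-treated ones, with no overlap. The LHCB1 share averaged 45.6% ± 2.44 (SD, n = 3) in HX17_MA, 57.6% ± 5.27 in HX17_CA and 67.9% ± 3.05 in HX17_FA. In HX58 it averaged 47.5% ± 1.91 in MA, 74.3% ± 0.347 in CA and 75.9% ± 1.06 in FA. A larger share did not always go with more LHCB1 mRNA. Mean summed LHCB1 FPKM in MB, CB and FB was 51884, 41086 and 41592 in HX17 and 48135, 31554 and 43873 in HX58. In MA, CA and FA it was 67539, 73913 and 110568 in HX17 and 72897, 132704 and 131604 in HX58. LHCB2 took 11.8% to 17.1% of antenna FPKM in the control libraries, 1.34% to 2.37% in HX17_FA and 1.02% to 1.28% in HX58_FA. In HX58_CB the LHCB2 share, 11.3% to 17.5%, overlapped that of the controls, while in HX17_CB it was 7.69% to 10.1%. An exact permutation test of 3 against 3 libraries cannot go below p = 0.1, so these shares are given without a test.

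In plants moved directly into the cold, antenna loci were lower than in MB controls, and none was called higher. A call needed at least a 2-fold change together with a Benjamini-Hochberg adjusted p under 0.005 in edgeR's quasi-likelihood test over all genes. In HX17_CB against HX17_MB, 0 of 68 tested antenna loci rose (none at an unadjusted p under 0.05 with a rise, none by DESeq2) and 40 fell, beside 5.98% of all tested genes called higher and 8.19% called lower. Their median log2 change was -1.53, and that of all tested genes 0.01. In HX58_CB, 0 rose (again none at an unadjusted p under 0.05 and none by DESeq2) and 31 of 68 fell, beside 14.2% and 11.8% of all genes, with medians of -1.33 and -0.02, and all 68 fitted changes lay below 0. After direct freezing, 0 of 67 rose in HX17_FB (3 at an unadjusted p under 0.05, 0 by DESeq2) and 11 fell, beside 12.8% and 13.3% of all genes, with medians of -0.85 and -0.04. In HX58_FB, 0 of 68 rose (none at an unadjusted p under 0.05 and none by DESeq2) and 21 fell, beside 16.1% and 13.6%, with medians of -1.12 and 0.01. The 11 of 67 in HX17_FB is a share close to the background.

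These counts moved with single libraries. Without HX17_MB_1 the HX17_CB count was 23. The HX17_FB count was 4 without HX17_MB_1, HX17_MB_2 or HX17_FB_3, 5 without HX17_MB_3 and 30 without HX17_FB_2, the library with the highest antenna share of its group. The HX58_CB count was 19 without HX58_MB_1, 18 without HX58_MB_2 or HX58_CB_1 and 10 without HX58_CB_3, and the HX58_FB count was 10 without HX58_MB_1, 6 without HX58_FB_1 and 11 without HX58_FB_3. With the replicate number as a block, HX58_CB gave 20 and HX58_FB 13.

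Between -4° and 4° without acclimation, few antenna loci were called, while 55 of 67 fitted changes in HX17 and 49 of 67 in HX58 lay above 0. In HX17_FB against HX17_CB, edgeR called 0 of 67 in either direction (25 at an unadjusted p under 0.05, of which 23 were higher, and 4 higher by DESeq2), beside 2.38% of all genes higher and 0.467% lower, with medians of 0.62 for the antenna and -0.03 for all genes. In HX58_FB against HX58_CB, 2 of 67 rose (19 at an unadjusted p under 0.05, 5 by DESeq2) and 0 fell (1 at an unadjusted p under 0.05, 0 by DESeq2). Of all genes, 2.57% rose and 0.352% fell, and the medians were 0.29 and -0.03. One of these 2 is the LHCB5 locus BnaA09g22540D, and both calls were lost without HX58_CB_1, HX58_CB_3, HX58_FB_1 or HX58_FB_2, as well as with the replicate number as a block.

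After acclimation, more antenna loci were called lower than higher against MA. In HX17_CA against HX17_MA, 0 of 67 rose (3 at an unadjusted p under 0.05, 0 by DESeq2) and 3 fell, beside 0.608% of all genes called higher and 0.449% called lower, with medians of -0.46 and -0.03. No call was left without any 1 of HX17_MA_1, HX17_MA_2, HX17_MA_3, HX17_CA_1 or HX17_CA_2 or with the replicate number as a block, and without HX17_CA_3 there were 7. In HX58_CA, 4 of 69 rose and 20 fell, beside 2.6% and 2.77%, with medians of -0.63 and -0.05. That count of 24 was 6 without HX58_CA_1 or HX58_CA_3, 9 without HX58_CA_2 and 10 with the replicate number as a block. In HX17_FA against HX17_MA, 4 of 67 rose and 20 fell, beside 5.26% and 2.63%, with medians of -0.26 and -0.01. In HX58_FA, 6 of 69 rose and 24 fell, beside 9.42% and 7.26%, with medians of -0.54 and 0.04. The shares called higher in HX17_FA and HX58_FA are close to the background.

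Between 4° and -4° in acclimated plants, LHCB2 loci fell in both varieties. In HX17_FA against HX17_CA, 1 of 67 loci rose and 10 fell, beside 3.35% and 0.867% of all genes, with medians of 0.10 and -0.03. All 8 LHCB2 loci were among the 10. The count of 11 was 4 without HX17_CA_1, HX17_CA_2, HX17_FA_1 or HX17_FA_3. In HX58_FA against HX58_CA, 2 of 68 rose and 13 fell, beside 8.4% and 7.56%, with medians of -0.30 and 0.07, and 7 of the 13 were LHCB2 loci. The other 6 were 2 LHCB5, 2 LHCA2 or LHCA6, 1 LHCA3 and 1 LHCA5 locus, and the 2 that rose were LHCA1 loci.

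The 2 control groups were not alike in antenna expression, so the acclimated groups were also set against MB. In HX17_MB against HX17_MA, 0 of 67 loci were higher (none at an unadjusted p under 0.05, none by DESeq2) and 4 were lower, beside 0.864% and 0.239% of all genes, with medians of -0.76 and -0.01. This count was 0 without HX17_MA_1, HX17_MA_3, HX17_MB_1 or HX17_MB_2, and 1 without HX17_MB_3 or with the replicate number as a block. In HX58_MB against HX58_MA, edgeR called 0 of 69 in either direction (40 at an unadjusted p under 0.05, all lower, and 19 lower by DESeq2), beside 0.00563% and 0.00938%, with medians of -0.80 and 0.02. Against MB, HX17_CA had 4 of 66 loci higher and 1 lower, beside 2.61% and 3.51% of all genes, with medians of 0.30 and -0.01. HX17_FA had 18 of 67 higher and 11 lower, beside 7.37% and 5.37%, with medians of 0.54 and 0.01. HX58_CA had 7 of 69 higher and 0 lower, beside 7.05% and 4.66%, with medians of 0.02 and -0.07. HX58_FA had 13 of 69 higher and 16 lower, beside 10.8% and 9.62%, with medians of -0.03 and -0.02.

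**Figure D2:**
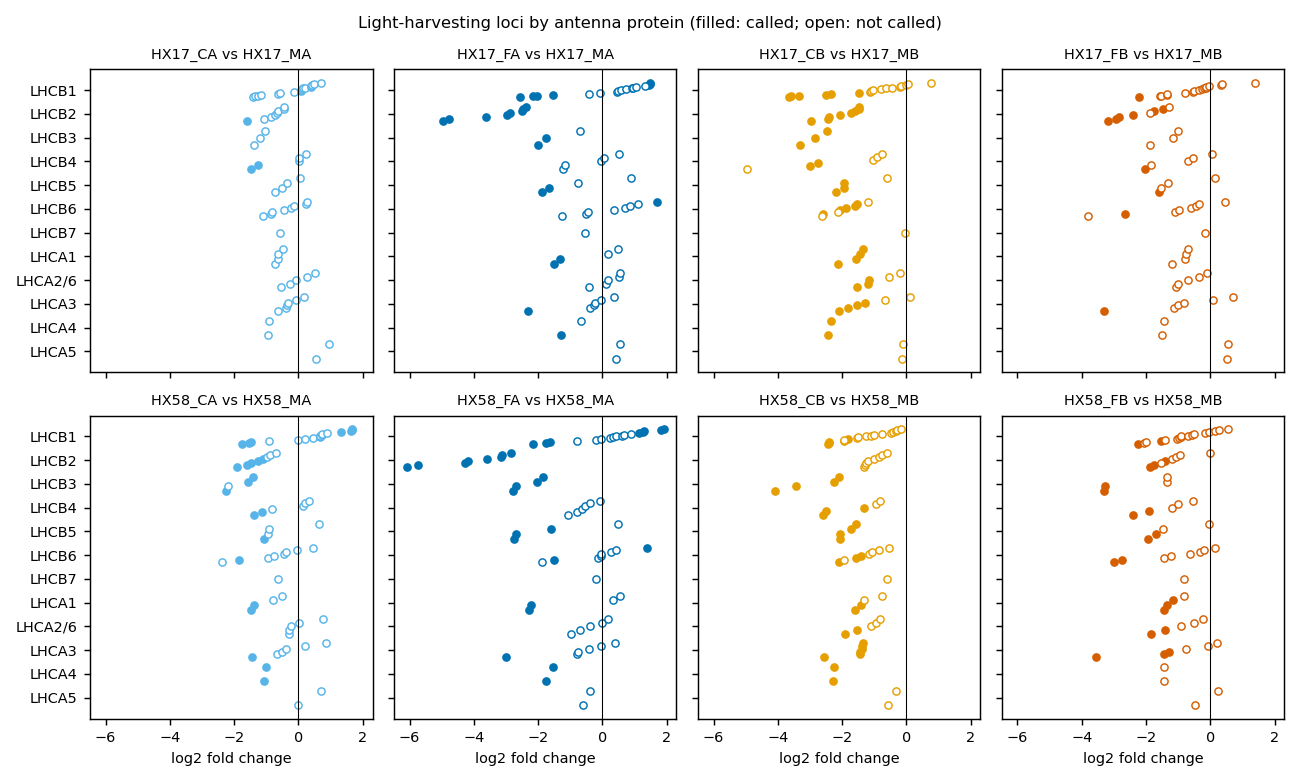
Log2 fold change of each tested antenna locus against its control, by antenna protein, for the 4 treatments in HX17 (top) and HX58 (bottom); each point is a locus, filled where called and open where not, with CA and FA in blue and CB and FB in orange. All 8 LHCB2 loci were lower in FA of both varieties, at -2.37 to -4.95 in HX17 and -2.85 to -6.07 in HX58, while LHCB1 loci lay on both sides of 0 there.

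LHCB1 loci moved in both directions, and their calls are given by best Swiss-Prot match. The 8 copies over 600 bp that matched Arabidopsis LHCB1.3 rose or did not pass the test in the acclimated groups: 2 rose in HX17_FA, 4 in HX58_CA and 4 in HX58_FA, where 5.26%, 2.6% and 9.42% of all tested genes were called higher, and none fell there. Of the same copies, 1 fell in HX58_CB, BnaA07g07560D (chosen after its values were seen) at -1.81. Their median log2 change was 0.93 in HX17_FA, 1.10 in HX58_CA and 0.93 in HX58_FA, against -0.33 in HX17_CB and -0.45 in HX58_CB. Among the 6 copies over 600 bp that matched the CAB1 protein of white mustard (Sinapis alba), 4 fell and 1 rose in HX17_FA, 5 fell in HX17_CB, 3 fell in HX58_CA, 3 fell and 1 rose in HX58_FA, 3 fell in HX58_CB, 1 fell in HX17_FB and 2 fell in HX58_FB. The share of all tested genes called lower ran from 2.63% to 13.6% in these comparisons. Against MB, no LHCB1 locus was called lower in HX17_FA, HX58_CA or HX58_FA, so these falls after acclimation depend on the control group. The split by match was made after the values were seen, and the difference between the match groups was not tested.

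The most abundant locus of the family was BnaA04g20150D, an LHCB1.3-matching copy at A04, 15583597 to 15584400. Its FPKM were 6338, 6849 and 8149 in HX17_MA, 9710, 9142 and 15569 in HX17_CA and 24392, 14889 and 14980 in HX17_FA. In HX58 they were 8994, 7794 and 8033 in MA, 25610, 24018 and 26772 in CA and 33213, 30614 and 30128 in FA. MA lay below both cold groups in each variety, while CA and FA overlapped in HX17 and not in HX58. The log2 change against MA was 1.47 ± 0.25 (SE, edgeR adjusted p = 0.00262) in HX17_FA, 1.68 ± 0.14 (adjusted p = 0.000142) in HX58_CA and 1.90 ± 0.17 (adjusted p = 4.71e-05) in HX58_FA. The call in HX17_FA was lost without any 1 of HX17_MA_1, HX17_MA_2 or HX17_MA_3, and the HX58 calls held without any 1 library. In the non-acclimated cold groups its level overlapped that of MB, with 4381 to 5377 FPKM in HX17_MB, 4692 to 6540 in HX17_CB and 4769 to 7969 in HX17_FB.

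BnaC03g59520D, another LHCB1.3-matching copy (C03, 48729635 to 48730438), differed between the varieties in its response to acclimated chilling. In HX17 it measured 6754, 8066 and 9262 FPKM in MA and 8481, 8087 and 9257 in CA. In HX58 it measured 7019, 5599 and 6981 in MA and 18689, 19463 and 20069 in CA. The ranges overlapped in HX17 and lay far apart in HX58. The interaction of variety and treatment was 1.53 ± 0.23 on the log2 scale (SE, edgeR adjusted p = 0.00473), higher in HX58, and it passed no more with any 1 of the 12 libraries left out or with the replicate number as a block. It was the 1 antenna locus of 69 called for this interaction, beside 0.169% of all genes.

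**Figure D3:**
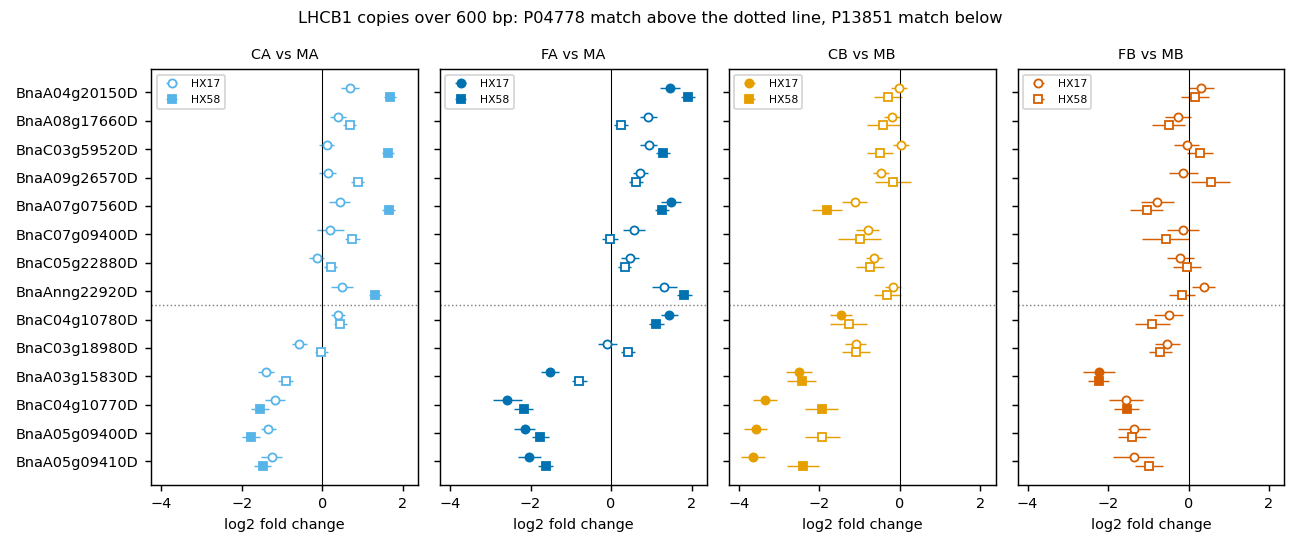
Log2 fold change (point) and its standard error (bar) of the 14 LHCB1 copies over 600 bp in CA and FA against MA and in CB and FB against MB; circles are HX17 and squares HX58, filled where called, and the dotted line separates copies matching Arabidopsis LHCB1.3 (above) from those matching Sinapis alba CAB1 (below). In FA, BnaC04g10780D rose by 1.45 and 1.12 while its neighbour BnaC04g10770D was at -2.58 and -2.17.

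A pair of adjacent LHCB1 copies on C04 went in opposite directions under acclimated freezing when set against MA. BnaC04g10770D (8397990 to 8399620, minus strand) and BnaC04g10780D (8400242 to 8401042, plus strand) are transcribed away from each other, with 621 bp between them. Both match Sinapis alba CAB1, and they were chosen after their values were seen. BnaC04g10770D had 1830, 1512 and 2033 FPKM in HX17_MA and 267, 423 and 149 in HX17_FA, and 1752, 1556 and 1124 in HX58_MA and 276, 374 and 349 in HX58_FA. BnaC04g10780D had 3892, 4165 and 5090 in HX17_MA and 13167, 9070 and 10789 in HX17_FA, and 4686, 4056 and 3879 in HX58_MA and 10796, 8419 and 8660 in HX58_FA. No FA group overlapped its MA group in either gene. The log2 changes were -2.58 ± 0.35 and 1.45 ± 0.22 in HX17_FA (edgeR adjusted p = 0.000679 and 0.00119) and -2.17 ± 0.24 and 1.12 ± 0.19 in HX58_FA (adjusted p = 0.000137 and 0.00148). Against MB, the fall of BnaC04g10770D in FA was called in neither variety, while the rise of BnaC04g10780D was called in both. In HX17_CB both genes fell, by 3.35 and 1.47 on the log2 scale. BnaC04g10780D was 1 of the 2 loci called higher in some treatments and lower in others.

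A second adjacent pair moved together. BnaA05g09410D (A05, 5205392 to 5206192) and BnaA05g09400D lie 617 bp apart on opposite strands and match the same mustard protein. BnaA05g09410D had 663, 726 and 671 FPKM in HX17_MB and 46.9, 51.6 and 92.2 in HX17_CB, with a log2 change of -3.66 ± 0.30 (edgeR adjusted p = 0.000113), the strongest fall among the called loci of that comparison. In HX58 it went from 288, 375 and 468 in MB to 47.8, 93.9 and 74.4 in CB, at -2.40 ± 0.39 (adjusted p = 0.00102). BnaA05g09400D, chosen after its values were seen, was at -3.58 in HX17_CB (called) and -1.93 in HX58_CB (not called). Both genes fell against MA in FA of both varieties, where 2.63% (HX17) and 7.26% (HX58) of all tested genes were called lower. Neither was called lower against MB in FA.

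Under acclimated freezing, LHCB2 showed the deepest falls of the antenna. In CA and CB of both varieties the summed FPKM of LHCB3 fell by a larger factor. In CB, mean LHCB3 went from 2393 to 372 in HX17 and from 2658 to 538 in HX58. Mean LHCB2 there went from 17258 to 5482 and from 13239 to 7514. The summed FPKM of the 8 LHCB2 loci averaged 22574 ± 2003 (SD, n = 3) in HX17_MA, 13030 ± 1420 in HX17_CA and 2710 ± 626 in HX17_FA. In HX58 the sum averaged 22189 ± 3054 in MA, 9415 ± 1201 in CA and 2058 ± 248 in FA. All 8 loci fell in FA of both varieties, where 2.63% (HX17) and 7.26% (HX58) of all tested genes were called lower. They also fell against MB, beside 5.37% and 9.62%. In HX58 the 8 include the weakly read BnaC09g01520D, with a mean of 1.80 FPKM over the libraries of that variety. In HX17_CB all 8 fell, beside 8.19% of all tested genes, with a median of -1.89. In HX58_CB none of the 8 was called, beside 11.8%, with a median of -1.11 and a range of -1.32 to -0.59. No LHCB2 locus was called for the interaction of variety and CB, so this contrast of calls is not shown to be a difference between the varieties.

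BnaC07g24660D (C07, 30881679 to 30882573) fell most in FA. Its FPKM were 2276, 2276 and 2903 in HX17_MA, 905, 832 and 709 in HX17_CA and 58.99, 65.7 and 101 in HX17_FA. In HX58 they were 2250, 2229 and 2099 in MA, 407, 651 and 617 in CA and 23.5, 33.3 and 41.8 in FA. The 3 groups formed 3 separate steps in each variety. The log2 change against MA was -4.95 ± 0.27 in HX17_FA (edgeR adjusted p = 4.05e-06, 30.9-fold lower) and -6.07 ± 0.27 in HX58_FA (adjusted p = 1.43e-06, 67.3-fold lower), and both held without any 1 library. Against CA it was -3.38 ± 0.26 and -4.20 ± 0.26 (adjusted p = 8.82e-05 and 2.75e-06). Its call in HX17_CA, at -1.60 ± 0.20, was lost without any 1 of the 3 HX17_MA libraries, without HX17_CA_1 or HX17_CA_2, with the replicate number as a block, and against MB, where it was -0.59.

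BnaA09g02120D (A09, 1043317 to 1044364), the LHCB2 locus with the highest mean level, had 4640, 3913 and 4319 FPKM in HX17_MA and 751, 997 and 577 in HX17_FA, and 8746, 10027 and 6744 in HX58_MA and 1013, 1233 and 1346 in HX58_FA. It fell by 2.37 ± 0.24 and 2.85 ± 0.23 on the log2 scale (SE, edgeR adjusted p = 0.000118 and 2.26e-05). In HX17_CB, at 1018, 1487 and 1626 FPKM against 3181 to 3393 in MB, it fell by 1.48 ± 0.21 (adjusted p = 0.00123), a call lost without HX17_MB_1 or HX17_CB_1.

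**Figure D4:**
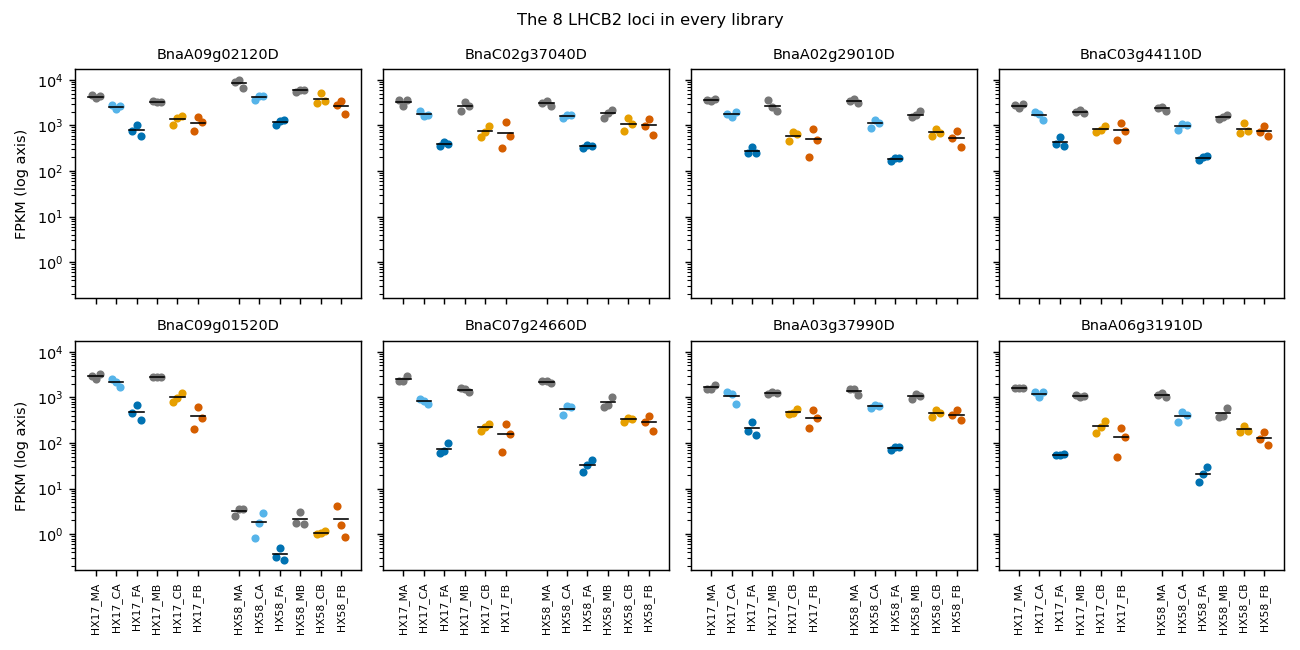
FPKM on a log axis of the 8 LHCB2 loci in every library, by variety and group; each point is a library, each black line the mean of 3, with controls in grey, CA and FA in blue and CB and FB in orange. All FA libraries lay below all MA and MB libraries of their variety for each locus, and BnaC09g01520D lay at 0.277 to 4.09 FPKM in all HX58 libraries against 202 to 3261 in those of HX17.

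LHCB3 is the third subunit of the trimers. Against their own controls, 3 of 3 tested loci fell in HX17_CB, 2 of 3 in HX17_FA, 4 of 4 in HX58_CB and HX58_FA, 3 of 4 in HX58_CA and 2 of 4 in HX58_FB, and none was called in HX17_CA or HX17_FB. Of all tested genes, 8.19%, 2.63%, 11.8%, 7.26%, 2.77% and 13.6% were called lower in HX17_CB, HX17_FA, HX58_CB, HX58_FA, HX58_CA and HX58_FB. The locus tested only in HX58 was the weakly read BnaA02g09700D. In HX58_CB it passed the filter through its control counts. That call was lost without any 1 of the 3 HX58_MB libraries or HX58_CB_3. The summed LHCB3 FPKM averaged 3809 ± 335 (SD, n = 3) in HX17_MA, 1553 ± 459 in CA and 961 ± 334 in FA, and 2393 ± 148 in HX17_MB, 372 ± 149 in CB and 1065 ± 876 in FB. In HX58 it averaged 5519 ± 185 in MA, 1701 ± 337 in CA and 1314 ± 196 in FA, and 2658 ± 314 in MB, 538 ± 148 in CB and 976 ± 413 in FB. BnaC09g30700D (C09, 33682288 to 33683255), its most abundant locus, had 1336, 1477 and 1394 FPKM in HX17_MB, 119, 138 and 242 in HX17_CB and 203, 1165 and 431 in HX17_FB. The CB libraries lay far below MB, and HX17_FB_2 stood close to it. The log2 change was -3.30 ± 0.30 in HX17_CB (edgeR adjusted p = 0.000174) and -2.24 ± 0.35 in HX58_CB (adjusted p = 0.000753). It also fell against MA in HX17_FA (-2.01), HX58_CA (-1.58) and HX58_FA (-1.86), and none of these 3 was called against MB (-1.10, -0.44 and -0.77). The HX58_CA call was also lost without HX58_CA_2 or HX58_CA_3, and the HX58_CB call without HX58_CB_3.

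The minor antenna proteins split by locus. For LHCB4 (CP29), the pair of loci matching Arabidopsis LHCB4.2 fell in HX17_CA, HX17_CB, HX58_CA, HX58_CB and HX58_FB, beside 0.449%, 8.19%, 2.77%, 11.8% and 13.6% of all tested genes. Against MB, no LHCB4 locus was called lower in HX17_CA or HX58_CA. An example is BnaA05g29390D (chosen after its values were seen) at 2574, 2577 and 2586 FPKM in HX17_MA and 1019, 883 and 850 in HX17_CA (-1.49 ± 0.18, edgeR adjusted p = 0.00317), a comparison in which no call was left without any 1 of 5 of the 6 libraries. The LHCB4.1-matching BnaAnng00160D, the most abundant LHCB4 locus, was called in none of the 8 treatments against its own control, with 2126 to 2912 FPKM in HX17_MA, 2209 to 2753 in CA and 3267 to 3500 in FA, and log2 changes between -0.91 and 0.53. Against the other control it was called higher in HX17_FA (1.26) and lower in HX17_CB (-1.63), HX58_CB (-1.85) and HX58_FB (-1.60).

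LHCB5 (CP26) had 1 abundant locus that differed from its other 3 in FA. BnaA09g22540D had 1714, 3696 and 4637 FPKM in HX17_MA and 5299, 5573 and 6181 in HX17_FA, with HX17_MA_1 apart from the other controls and a log2 change of 0.88 that was not called. In HX58_CB it fell from 1720, 2669 and 2379 in MB to 790, 640 and 924 (-1.58 ± 0.29, edgeR adjusted p = 0.00191), a call lost without HX58_MB_2, HX58_CB_1 or HX58_CB_3 and with the replicate number as a block. In HX58_FB it was back at 2383, 2636 and 1755. Of the other 3 loci, 2 fell in HX17_FA and all 3 in HX58_FA, and BnaA03g24350D (chosen after its values were seen) went from 688, 677 and 636 in HX58_MA to 88.2, 104 and 106 in HX58_FA.

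LHCB6 (CP24) held the strongest rise in HX17_FA. BnaA08g23760D (A08, 16795923 to 16796926) had 127, 114 and 179 FPKM in HX17_MA and 454, 352 and 463 in HX17_FA, and 160, 126 and 160 in HX58_MA and 435, 367 and 387 in HX58_FA. No FA library overlapped MA. The log2 change was 1.71 ± 0.24 in HX17_FA (edgeR adjusted p = 0.000916) and 1.40 ± 0.17 in HX58_FA (adjusted p = 0.000223), and the first call was lost without HX17_MA_1 or HX17_FA_1. The most abundant LHCB6 locus, BnaC05g12070D, was at 3061, 2741 and 3075 in HX17_MA and 2075, 1953 and 2069 in HX17_FA, which did not pass the test, and fell in HX17_CB from 1413, 1658 and 1205 in MB to 362, 423 and 564 (-1.89 ± 0.24, adjusted p = 0.000712), a call lost without HX17_MB_1.

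LHCB7, a rarer and less known relative, was represented by BnaC02g24150D at 4.57 to 21.1 FPKM, and it was called in no treatment. The 2 unresolved loci averaged 4.39 (BnaA02g18160D) and 0.720 FPKM (BnaC04g56710D). KEGG names another protein for BnaC04g56710D, so its place in the family rests on the Swiss-Prot text alone.

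Most photosystem I antenna proteins had loci that fell in the direct cold. The 4 loci for LHCA1, which pairs with LHCA4 in the plant photosystem, all fell in HX17_CB, with changes of -2.13 to -1.36. In FA against MA they formed 2 pairs. BnaA07g16530D had 2822, 2521 and 2315 FPKM in HX17_MA and 3587, 2022 and 2275 in HX17_FA, and 2455, 2446 and 2220 in HX58_MA and 2936, 3015 and 3094 in HX58_FA, and neither change passed the test. BnaA09g34720D (chosen after its values were seen) had 2008, 1835 and 1804 in HX17_MA and 789, 783 and 545 in HX17_FA, and 3175, 3379 and 3258 in HX58_MA and 645, 753 and 730 in HX58_FA. It fell by 1.31 ± 0.22 and 2.22 ± 0.16 on the log2 scale (SE, edgeR adjusted p = 0.00267 and 1.31e-05). The C-subgenome loci BnaC06g15470D and BnaC08g25680D went with the first and the second of these, respectively, in FA. Against MB, 1 LHCA1 locus was called higher and none lower in HX17_FA, and 2 were called higher and 1 lower in HX58_FA. The fall of BnaA09g34720D in HX17_FA was thus not called against MB.

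Both LHCA4 loci fell in HX17_CB and HX58_CB, by 2.26 to 2.44 on the log2 scale. BnaCnng15190D, the more abundant, had 2825, 2909 and 2460 FPKM in HX17_MB, 488, 628 and 784 in HX17_CB and 455, 1666 and 801 in HX17_FB. It fell by 2.33 ± 0.23 in HX17_CB (SE, edgeR adjusted p = 0.000226), and all cold libraries lay below all controls. In HX58_FA it went from 3875, 4064 and 3113 in MA to 1105, 1147 and 1071, at -1.75 ± 0.18 (adjusted p = 0.000105).

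Among LHCA3 loci, BnaA03g60230D fell in 7 of the 8 treatments, the exception being HX17_CA (-0.33, not called). Its fall in HX58_CA was not called against MB. It had 147, 113 and 158 FPKM in HX17_MB, 36.8, 26.9 and 49.1 in CB and 10.1, 20.1 and 10.5 in FB, and 189, 160 and 219 in HX58_MB, 51.8, 16.3 and 36.9 in CB and 19.7, 19.3 and 11.6 in FB. Its log2 change was -3.30 ± 0.31 in HX17_FB (edgeR adjusted p = 6.08e-05) and -3.56 ± 0.29 in HX58_FB (adjusted p = 3.81e-05), and both held without any 1 library. The most abundant LHCA3 locus, BnaCnng31870D, fell in HX17_CB (-1.54), HX58_CB (-1.45) and HX58_FB (-1.43), the first call being lost without HX17_MB_1, the second in each fit that left out a library, with RLE scaling and with the replicate number as a block, and the third without HX58_MB_1 or any 1 of the 3 HX58_FB libraries and with the block. LHCA2, the partner of LHCA3, was represented most by BnaA04g00660D, which had 2011, 1903 and 2024 in HX17_MB and 910, 858 and 1271 in HX17_CB (-1.18 ± 0.20, adjusted p = 0.00276), a call lost without any 1 of the 3 HX17_MB libraries, HX17_CB_1 or HX17_CB_2 and with the replicate number as a block. LHCA5, a minor subunit, was called in none of the 8 treatments, and its main locus BnaC08g04860D ranged from 60.3 to 177 FPKM over all libraries.

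The varieties differed at a few antenna loci already in control leaves. In MA, 2 of 69 loci were higher and 4 lower in HX58 than in HX17, beside 5.32% and 5.37% of all genes, with medians of -0.18 and 0.05. In MB, 3 were higher and 5 lower, beside 8.63% and 10.1%, with medians of -0.14 and 0.01, shares near the background. The MB count of 8 was 5 without HX17_MB_1 and 14 without HX58_MB_3.

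The strongest difference was at BnaC09g01520D, an LHCB2 locus (C09, 834443 to 835478). It had 2980, 2485 and 3261 FPKM in HX17_MA and 2.50, 3.49 and 3.53 in HX58_MA, and 2857, 2822 and 2786 in HX17_MB and 1.77, 3.04 and 1.68 in HX58_MB. HX58 counts were 91 to 131 per MA library against 66829 to 105287 in HX17. The log2 difference was -10.01 ± 0.30 in MA (SE, edgeR adjusted p = 2.85e-06) and -10.46 ± 0.34 in MB (adjusted p = 2.18e-07), and both held without any 1 library. The summed LHCB2 FPKM overlapped between the varieties, at 22574 ± 2003 FPKM in HX17_MA and 22189 ± 3054 in HX58_MA (SD, n = 3). BnaA09g02120D was at 3913 to 4640 in HX17_MA and 6744 to 10027 in HX58_MA, a difference that was not called.

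The low level in HX58 extended along the chromosome. Of the 40 annotated genes flanking BnaC09g01520D (C09, 745711 to 961113), 20 had a mean of at least 1 FPKM in a variety over its 18 libraries, and 19 of these were lower in HX58, 12 of them at least 8-fold on the scale of FPKM + 0.1, with a median log2 difference of -4.58. Around BnaA09g02120D (A09, 968085 to 1186266), 18 of 40 flanking genes were at that level, and 14 were higher and 4 lower in HX58, with a median of 0.71. Flanking genes of 2 further antenna loci that differed between the varieties showed no such shift, with medians of 0.04 over 15 genes at BnaC02g44590D and 0.21 over 23 genes at BnaA06g10520D. BnaC02g44590D lies on a sequence labelled C02_random, where genes listed side by side may not be neighbours on the chromosome. These values describe neighbouring genes, without a test.

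**Figure D5:**
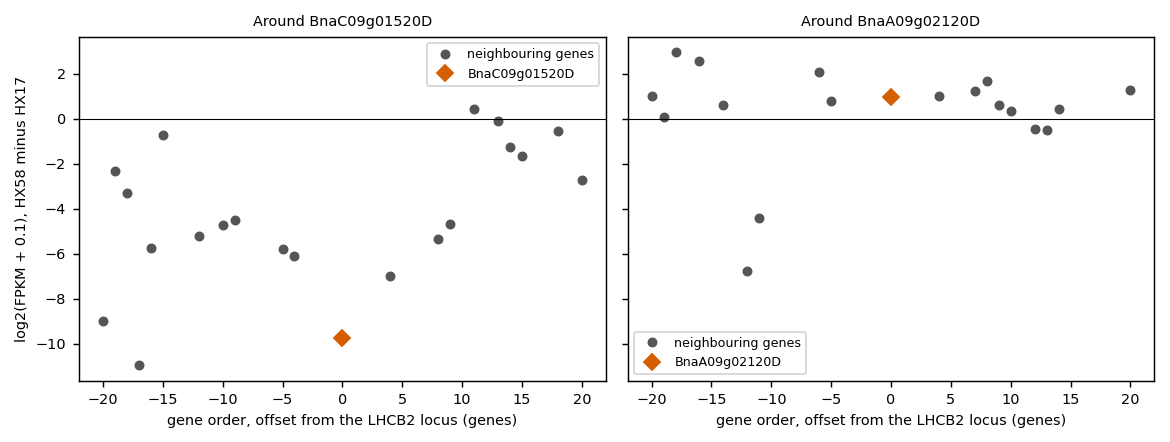
Difference between HX58 and HX17 in log2(FPKM + 0.1), averaged over 18 libraries of each variety, for genes with a mean of at least 1 FPKM in a variety within 20 genes on either side of the LHCB2 loci BnaC09g01520D (left) and BnaA09g02120D (right); the horizontal axis is the order of genes and the diamond is the LHCB2 locus. The median of the flanking genes was -4.58 on the left and 0.71 on the right.

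Other loci that differed in both controls were the LHCB3 locus BnaC02g44590D and the LHCB6 locus BnaA06g10520D, both chosen after their values were seen for this comparison. BnaC02g44590D had 30.4, 18.4 and 23.8 FPKM in HX17_MA and 1128, 1064 and 1433 in HX58_MA (5.47 ± 0.29 higher on the log2 scale, edgeR adjusted p = 4.44e-06), and 29.7, 54.02 and 45.2 in HX17_MB against 355, 360 and 519 in HX58_MB. In HX58 it was also the antenna locus with the strongest fall in CA, to 184, 300 and 239 (-2.26 ± 0.21, adjusted p = 0.000222), which was at -0.57 and not called against MB. BnaA06g10520D had 3643, 3560 and 3472 in HX17_MA and 718, 569 and 842 in HX58_MA (-2.49 ± 0.21, adjusted p = 3.94e-05). A weakly read LHCB3 locus, BnaA02g09700D, had 1, 0 and 1 counts in the HX17_MA libraries and 144, 179 and 129 in those of HX58_MA; it was called, and its fitted fold change is not given because it depends on the prior count. In HX58 it had 56 to 67 counts per MB library and 0 to 7 per CB library.

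Of the interactions of variety and treatment beyond CA, none was called for an antenna locus by edgeR. For FA, 0 of 69 were called (24 at an unadjusted p under 0.05, 2 by DESeq2), beside 0.23% of all genes. For CB it was 0 of 69 (13 and 2), beside 1.92%, and for FB 0 of 69 (8 and 1), beside 1.6%. Without HX17_MA_1 the FA count was 1, and without HX58_MB_3 the CB count was 1. The medians over the antenna loci were -0.08 for CA, -0.40 for FA, 0.06 for CB and -0.28 for FB, and over all genes -0.03, 0.04, 0.04 and 0.00.

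Among relatives of the antenna proteins, early light-induced proteins were called higher in the direct cold. Of their 10 loci (ELIP), which in Arabidopsis are made under high light and cold, 4 of 7 tested rose in HX17_CB and 6 of 7 in HX58_CB, 6 of 7 rose in HX17_FB and 4 of 7 in HX58_FB, and none fell there, where 5.98%, 14.2%, 12.8% and 16.1% of all tested genes were called higher. The HX58_FB calls were all lost with the replicate number as a block. The most abundant, BnaCnng14300D, had 34.1, 48.7 and 27.0 FPKM in HX17_MB, 1728, 1469 and 1390 in HX17_CB and 2379, 527 and 1565 in HX17_FB (5.15 ± 0.31 and 5.40 ± 0.58 higher on the log2 scale, edgeR adjusted p = 3.49e-05 and 0.000118). In acclimated plants no ELIP locus was called in CA of either variety, and 1 rose in FA of each, with 1 falling in HX17_FA and 2 in HX58_FA. The PsbS protein (photosystem II 22 kDa protein), which switches the antenna to heat dissipation, had 4 loci, of which 2 fell in HX58_FA and none was called in the other 7 treatments.

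Chlorophyll synthesis supplies the pigment of the antenna. Of 53 loci, 9 of 45 tested fell and 0 rose in HX17_CB, 12 of 45 fell and 3 rose in HX58_CB, 7 of 45 fell and 1 rose in HX17_FB, and 10 of 46 fell and 3 rose in HX58_FB, where 8.19%, 11.8%, 13.3% and 13.6% of all tested genes were called lower. The share in HX17_FB is close to that background. In FA, 4 of 47 fell and 2 rose in HX17, and 16 of 46 fell and 2 rose in HX58, beside 2.63% and 7.26% of all genes called lower. In CA, none of 47 was called in HX17 (edgeR) and 6 of 46 fell in HX58 (2.77%). Chlorophyllide a oxygenase makes the chlorophyll b that only antenna proteins bind in plants, and its most abundant locus BnaAnng19090D had 404, 712 and 506 FPKM in HX58_MA, 41.4, 57.8 and 57.04 in HX58_CA and 53.0, 55.7 and 62.2 in HX58_FA. It fell by 3.31 ± 0.25 in HX58_CA and by 2.34 ± 0.30 in HX17_FA on the log2 scale (SE, edgeR adjusted p = 8.03e-05 and 0.000492). Of the chlorophyll breakdown loci, 5 of 26 tested fell and none rose in HX17_CB, 5 fell and 2 rose in HX17_FB, 7 fell and 1 rose in HX58_CB, and 8 fell and 2 rose in HX58_FB, beside 8.19%, 13.3%, 11.8% and 13.6% of all tested genes called lower. In FA, 2 of 26 fell and 2 rose in HX17 (2.63%), and 10 of 26 fell and none rose in HX58 (7.26%). In CA, 4 of 25 fell in HX58 (2.77%) and none was called by edgeR in HX17. Of 12 tested xanthophyll cycle loci, at most 1 rose and at most 3 fell in any of the 8 treatments.

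GLK proteins activate photosynthesis genes in Arabidopsis. Of their 7 loci, 6 fell in HX17_FB and 5 in HX58_FB, beside 13.3% and 13.6% of all tested genes called lower. In HX58_FA 4 fell (7.26%) and in HX58_CB 4 (11.8%), and 1 fell in HX17_FA (2.63%) and 1 in HX17_CB (8.19%). In CA, 2 rose in HX17 and 1 in HX58, where 0.608% and 2.6% of all tested genes were called higher. The full list of regulators, GLK included, held 11 loci, all tested. From this list, 9 fell in HX58_FB and 5 in HX58_CB, and none rose there. Of the 32 clock loci, 23 to 25 were tested in a treatment. In HX17, 8 rose and 2 fell in CA, 8 and 8 in FA, 9 and 6 in CB, and 10 and 10 in FB. In HX58, 8 rose and 10 fell in CA, 8 and 10 in FA, 9 and 9 in CB, and 13 and 10 in FB. Of all tested genes, 0.608% to 16.1% were called higher and 0.449% to 13.6% lower in these treatments. All 3 loci for the evening clock protein APRR1 rose in all 8 treatments. LHY, a morning clock protein whose relative CCA1 binds LHCB promoters in Arabidopsis, had 9 loci, of which 3 of 3 tested fell in HX17_FA, 3 of 4 in HX17_CB and all 4 in HX17_FB, HX58_FA, HX58_CB and HX58_FB, where 2.63% to 13.6% of all tested genes were called lower. BnaA10g00780D, its most abundant locus, was at 180, 165 and 203 FPKM in HX17_MA and 14.7, 27.4 and 21.1 in HX17_FA, and at 270 to 508 in HX17_MB. Leaves were collected at one hour of the day, and the part of the clock genes in the antenna results was not tested. Of the loci that guide antenna proteins to the thylakoid, 2 of 2 for the 43 kDa subunit of the chloroplast signal recognition particle fell in HX17_FB, HX58_FA and HX58_FB, beside 13.3%, 7.26% and 13.6% of all tested genes, and those for the 54 kDa subunit were not called lower in any of the 8 treatments. Over all 21 loci of this list, 5 of 20 tested rose and 1 fell in HX58_CB, and 3 of 20 rose and 2 fell in HX58_FB. There, 14.2% and 16.1% of all tested genes were called higher, and 11.8% and 13.6% lower. In each other treatment, at most 1 rose and at most 2 fell. Of 15 loci matching the senescence protease SAG12, 1 to 4 were tested in a treatment. The most abundant, BnaA07g13180D, rose in HX17_FA, HX58_FA and HX17_FB, while 1 locus fell in each of HX17_CA, HX17_CB, HX17_FB and HX58_CB. BnaA07g13180D was at 0.240 to 0.717 FPKM in HX17_MA and 12.0 to 30.3 in HX17_FA, and at 0.0616 to 0.258 in HX58_MA and 27.1 to 40.1 in HX58_FA, and its part in the antenna results was not tested.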

How the data were processed

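Leaf RNA of 36 samples was sequenced, and the deposited table held the authors' raw read counts per gene and, beside them, FPKM values. Per the methods and the submitters' processing notes, the authors mapped reads with HISAT2 2.0.4 to the Genoscope genome of B. napus and counted them with HTSeq 0.9.1. The genome version was not given in the sources used. The deposited FPKM equalled the count per 1000 bases of coding length and 1000000 counts of the library, within 0.1%. The 36 columns of group means were not used, nor were columns of the authors' own comparisons, which hold their fold changes and p-values. No sample column was left unmapped (0).

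Counts were tested in edgeR 4.0.16 (R 4.3.3) by the quasi-likelihood test, with TMM scaling, genes kept by filterByExpr (minimum count 10, minimum total 15), only the groups compared in each fit, and Benjamini-Hochberg adjustment over all genes tested. Calls needed a fold change of 2 and an adjusted p under 0.005. Standard errors were the log2 change divided by the root of the F statistic. Interactions were fitted over the 4 groups concerned. Alternatives were DESeq2 1.42.0, RLE scaling, no filter on low counts, a looser call (adjusted p below 0.05 at any fold), a block for the replicate number, the other control group, and each library left out in turn. The edgeR script was tested on simulated data. Summaries used Python 3.11.15 and pandas 2.3.3.

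Named loci were the called locus with the largest change in each direction and comparison and the most abundant locus of each antenna protein by mean FPKM, and others are marked as chosen after their values were seen. The members and lists were chosen with earlier results of these data known.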

Additional observations from a re-analysis of the deposited data

Results flagged for a closer look

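The response of the LHCB1 locus BnaC03g59520D to chilling after acclimation differed between the varieties in the test of the interaction, by 1.53 on the log2 scale and in the direction of HX58. Every HX58_CA library lay above every HX58_MA library, while the ranges overlapped in HX17. The call was lost with any 1 of the 12 libraries left out and with the replicate number as a block, and held in 3 of 16 refits.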

How the results depend on the processing

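RLE scaling moved none of the 20 antenna counts by over 1.5 times, and no named log2 change reversed under any alternative, but 2 named calls in HX58 (BnaCnng31870D in CB and BnaA04g00660D in FB) were lost with it. With calls at an adjusted p below 0.05 and any fold, counts were 19 in HX17_CA against MA, 19 in HX17_FA against CA, 34 in HX17_FB against MB, 3 in HX17_FB against CB, 31 in HX17_MB against MA, 42 in HX58_CA against MA, 45 in HX58_FA against CA, 49 in HX58_CB against MB, 42 in HX58_FB against MB, 6 in HX58_FB against CB, 15 in HX58_MB against MA, 19 between the varieties in MA, 15 in MB, and 1, 2 and 1 for the interactions with FA, CB and FB. DESeq2 gave 10, 17, 25, 4 and 16 for the first 5 of these, 34 in HX58_FB against MB, 5 in HX58_FB against CB, 19 in HX58_MB against MA, and 2, 2 and 1 for the same interactions. Without a filter on low counts there were 6 in HX17_CA, 21 in HX17_FB against MB, 1 in HX17_FB against CB, 10 in HX17_MB against MA, 1 in HX58_MB against MA and 1 for the FA interaction. Against the other control there were 5 in HX17_CA, 32 in HX17_FB, 7 in HX58_CA, 51 in HX58_CB and 46 in HX58_FB. The cause of these moves was not tested.

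With the replicate number as a block, counts were 0 in HX17_CA, 1 in HX17_MB against MA, 10 in HX58_CA, 20 in HX58_CB, 13 in HX58_FB against MB, 0 in HX58_FB against CB and 0 for the CA interaction, and 13 of the 20 counts stayed within 1.5 times. The numbers did not pair the libraries: correlations of same-numbered deviations ran from -0.44 to 0.222, and in 0 of 16 comparisons was every pair over 0.1.

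Leaving out 1 library at a time gave 0 to 7 calls in HX17_CA against MA, 16 to 24 in HX17_FA against MA, 4 to 12 in HX17_FA against CA, 23 to 43 in HX17_CB, 4 to 30 in HX17_FB against MB, 0 in HX17_FB against CB, 0 to 4 in HX17_MB against MA, 6 to 28 in HX58_CA, 29 to 32 in HX58_FA against MA, 13 to 16 in HX58_FA against CA, 10 to 32 in HX58_CB, 6 to 16 in HX58_FB against MB, 0 to 2 in HX58_FB against CB, 0 in HX58_MB against MA, 6 between the varieties in MA, 5 to 14 in MB, 0 for the CA and FB interactions and 0 to 1 for those with FA and CB. The 3 libraries a group limit the precision of single loci.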
